A study of Mus musculus with 25 samples.

Results

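The 25 BXD strains were divided by how much Gpnmb RNA their dorsal root ganglia held, and all other genes were compared between the sides. Strains were chosen by that measured Gpnmb level and by nothing else. A strain was called low when its Gpnmb value was under 30 scaled counts, which placed 8 of 25 strains on the low side, and high when it was 30 or more, which placed 17 strains there. The BXD strains are recombinant inbred mice descended from the inbred strains C57BL/6J and DBA/2J, which the labels write C57BL6/J and DBA2/J, and at most loci a strain carries the allele of either parent in homozygous form. All mice were 8 weeks old, with no treatment, sex or number of animals named in the labels, and dorsal root ganglia, which hold the cell bodies of sensory neurons with their glia, were taken from each strain for 1 RNA sequencing library. The low strains were BXD40 and BXD42, whose names end in TyJ, and BXD44, BXD55, BXD60, BXD68, BXD77 and BXD89, whose names end in RwwJ. The high strains were BXD1, BXD2, BXD5, BXD6, BXD9, BXD11, BXD13, BXD14, BXD15, BXD16, BXD21, BXD28, BXD34 and BXD36, all TyJ, and BXD48, BXD73 and BXD87, all RwwJ. With a single library per strain, the spread between strains holds genotype, animal, dissection and library together, and the p-values measure differences against that spread.

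Gpnmb encodes a transmembrane glycoprotein of melanosomes and lysosomes that is made by pigment cells, macrophages, osteoclasts and other phagocytic cells, and its transcription is driven by the MiT-TFE factors that also control lysosomal genes. DBA/2J mice are known to carry a premature stop codon in Gpnmb, which together with an allele of the melanosomal gene Tyrp1 gives them a pigmentary form of glaucoma. A DBA/2J substrain with an intact Gpnmb gene also exists. The stop replaces codon 150. That codon is shown because it is a known coding difference between the parents at the gene by which the strains were split. It lies in exon 4 of 11 of the Gpnmb transcript, on the plus strand of chromosome 6, in a reading frame of 574 codons without its stop. The C57BL/6J sequence from the GENCODE annotation of GRCm38 is given with 10 codons on each side and codon 150 in capitals, and 1 single-base change of that codon makes a stop.
Gpnmb codon 150: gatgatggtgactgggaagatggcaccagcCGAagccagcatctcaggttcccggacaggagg

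Gpnmb had 2 scaled counts in BXD40, 13 in BXD42, 4 in BXD44, 4 in BXD55, 3 in BXD60, 3 in BXD68, 11 in BXD77 and 10 in BXD89. The high strains ran from 67 in BXD28 through a median of 125 to 256 in BXD9. A scaled count is a read count that the authors brought to a common upper quartile in every library and rounded. The strains nearest to the threshold were BXD42 at 13 on the low side and BXD28 at 67 on the high side, so no strain lay near 30. These values made the groups, so their difference is a description and was not tested. The low strains lay at 2 to 13 and the high strains covered a range of their own from 67 upwards, with BXD9, BXD15 and BXD5 above 200. In whole ganglia, fewer cells of a type and less RNA per cell cannot be told apart.

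**Figure D1:**
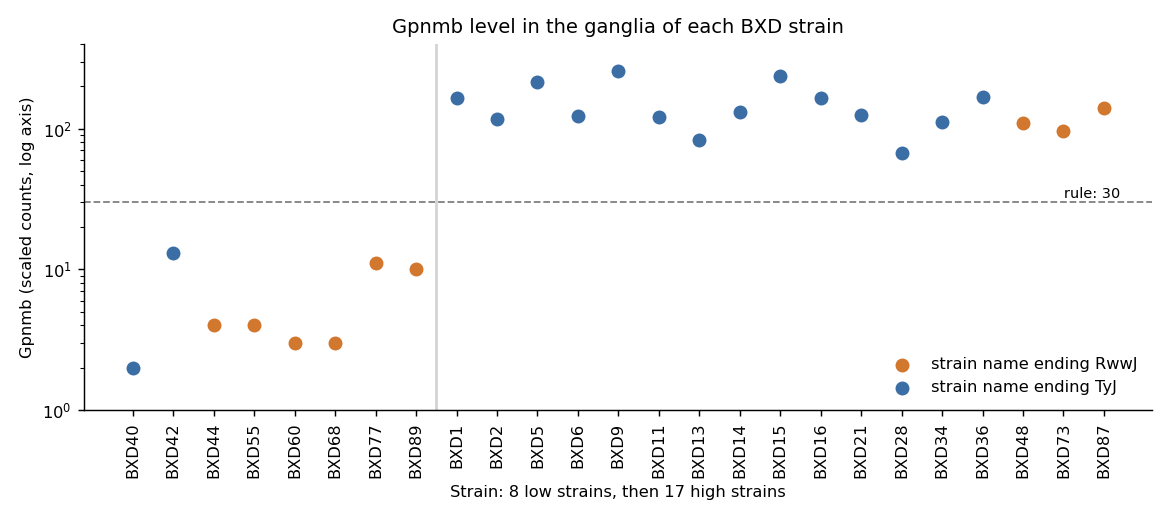
Gpnmb scaled counts (log axis) in each of the 25 strains, 8 low strains at left and 17 high strains at right, with points coloured by the ending of the strain name and the threshold of 30 as a dashed line. The low strains sit at 2 to 13 and the high strains at 67 to 256.

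The sides did not fall evenly over the strain numbers. All 12 strains numbered BXD1 to BXD28 were high, and all 8 low strains were among the 13 numbered BXD34 to BXD89, where the remaining 5 (BXD34, BXD36, BXD48, BXD73 and BXD87) were high. By the ending of the name, 6 of 9 RwwJ strains and 2 of 16 TyJ strains were low. As background, the low-numbered BXD lines were bred from the parental strains decades before the high-numbered ones. No genotypes were used here. That a low level stands for the DBA/2J allele was therefore not tested, and for the strains BXD1 to BXD28, all high, the parental allele at Gpnmb cannot be told from the level. Side, strain number and ending are partly confounded, so the single genes described most fully are also given for BXD34 to BXD89 alone, with 8 low against 5 high strains, or for TyJ and RwwJ strains apart. The limit to BXD34 to BXD89 was chosen after the values were seen.

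Totals of scaled counts were 24637919 to 26611472 in the low strains and 24749362 to 26860283 in the high strains. The neuronal tubulin gene Tubb3 had 79459 to 109740 in low strains and 70436 to 109907 in high strains, and the peripheral myelin gene Pmp22 had 35159 to 75283 in low strains and 39102 to 71858 in high strains, so both neuron and Schwann cell RNA were present in all libraries. Summed spinal cord genes such as the oligodendrocyte gene Mobp ranged from 309 to 3308 in low strains and from 224 to 12160 in high strains, the last value in BXD48 and the next at 3297. Skeletal muscle genes summed to 340 to 43943 in low strains and 397 to 28272 in high strains. Without BXD48 limma called 0 genes between the sides, and it called 0 with muscle, erythroid and Schwann cell scores as covariates.

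The first question was which genes besides Gpnmb differed between the sides. None passed the threshold. Of 16151 genes tested with limma on log2(scaled count + 1), 0 were called at a Benjamini-Hochberg adjusted p under 0.05 (0%), with 158 at an unadjusted p under 0.05 (0.978%), 73 higher and 85 lower in the low strains. The rank-sum permutation test called 0 genes as well, with 185 at an unadjusted p under 0.05, and the exact rank-sum test over all 1081575 splits of the strains called 0, with 187. For 0 genes (0%) did the 8 low strains and the 17 high strains occupy ranges that did not overlap. The median difference over all genes, always low minus high, was 0.0024 on the log2 scale. The 95% interval of a difference reached a median of 0.22 to each side, and for 15447 genes (95.6%) it lay within 1 log2 unit of 0. Differences of more than a doubling were therefore outside the interval for most genes, while for genes that vary widely between strains, such as those of muscle and spinal cord, they were not.

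On chromosome 6 itself 0 of 792 genes were called by limma and 7 (0.884%) had an unadjusted p under 0.05, against 141 of 14849 on the other chromosomes (0.95%). Among the 50 genes nearest to Gpnmb in gene order, 25 on each side, there were 2 (4%), and among the nearest 20 there was 1 (5%). In BXD34 to BXD89 limma also called 0 genes (0%), and 238 of 16151 had an unadjusted p under 0.05 (1.47%). There the count was 21 of 792 on chromosome 6 (2.65%), 7 of the nearest 50 (14%) and 5 of the nearest 20 (25%). Neighbouring genes are mostly inherited together in such strains and are not independent, and the shares were not tested against each other.

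**Figure D2:**
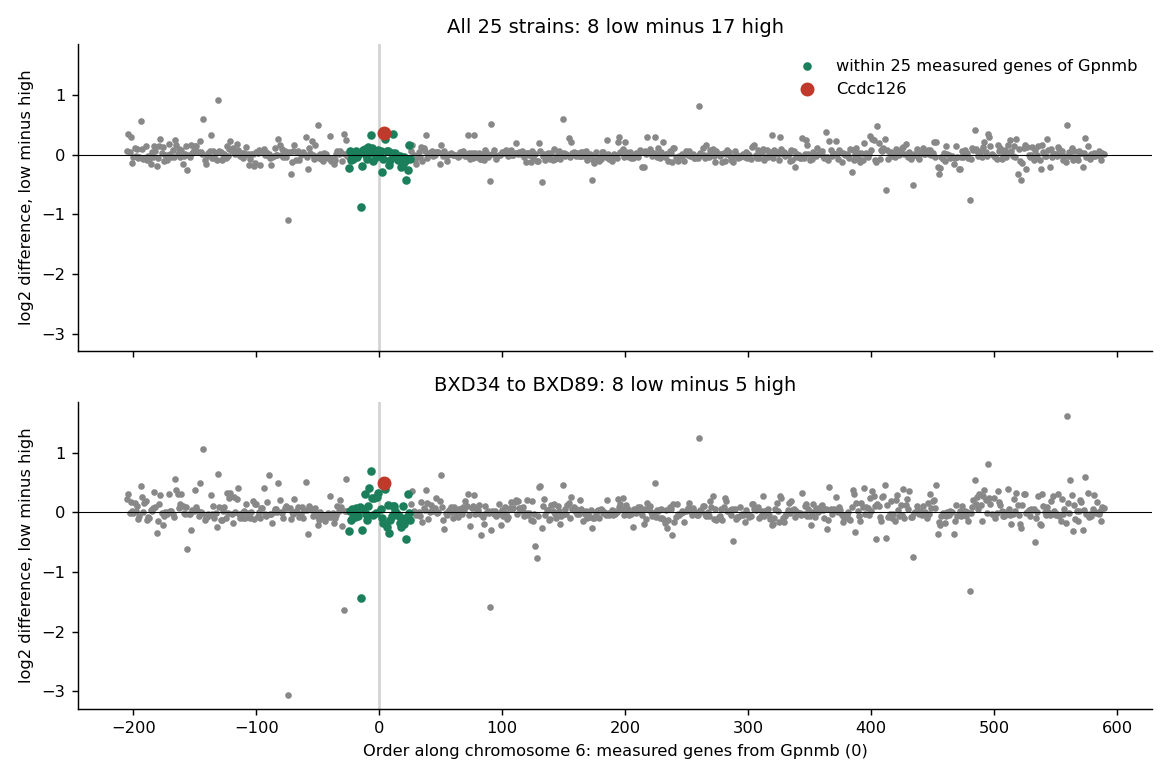
Log2 difference, low minus high strains, of each measured gene along chromosome 6, in gene order counted from Gpnmb, for all 25 strains (top) and for BXD34 to BXD89 (bottom). The 50 nearest genes are green and Ccdc126 red, which sits at 0.36 in the top panel and 0.49 in the bottom panel.

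Ccdc126, the fourth measured gene after Gpnmb and named for a coiled-coil domain, had the smallest p on chromosome 6. It had 664 scaled counts in BXD40, 709 in BXD42, 619 in BXD44, 660 in BXD55, 692 in BXD60, 722 in BXD68, 637 in BXD77 and 573 in BXD89. The high strains ran from 366 through a median of 519 to 675. Each of the 8 low strains lay above the high mean. The sides overlapped through BXD13, BXD14, BXD21 and BXD28, which were 4 of the 12 high strains numbered BXD1 to BXD28. Ccdc126 averaged 659.5 ± 49.4 in low strains (SD, n = 8) and 519 ± 92.4 in high strains (SD, n = 17), a log2 difference of 0.36 ± 0.10 (SE) with a 95% interval from 0.17 to 0.56. Its unadjusted limma p was 0.000778 and its limma adjusted p 0.9999. It was also the gene of smallest p among all genes in both rank-sum tests (exact p = 0.000327, adjusted p = 1.0).

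Among BXD34 to BXD89 the 5 high strains had 432 in BXD34, 562 in BXD36, 366 in BXD48, 519 in BXD73 and 488 in BXD87. All 8 low strains lay above all 5 of these. Ranges without overlap in these 13 strains, in either direction, were found for 5 of 16151 genes (0.031%), and Ccdc126 was the only 1 of them on chromosome 6. The log2 difference was 0.49 ± 0.10 (SE, unadjusted limma p = 0.000211). The limma adjusted p was 0.9999. Within TyJ strains, 2 low against 14 high, the difference was 0.39 ± 0.18, and within RwwJ strains, 6 low against 3 high, it was 0.52 ± 0.12. The values without overlap in BXD34 to BXD89 outside chromosome 6 were those of Pabpc4, a poly(A)-binding protein gene (log2 difference 0.15), Slc18a2, the vesicular monoamine transporter gene (0.29), Fam8a1 (-0.13) and Fndc4 (-0.28). These genes were named after their values were seen.

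Gsdme, the eighth gene after Gpnmb, encodes gasdermin E, a pore-forming protein of inflammatory cell death. Its low strains had 281 to 396 scaled counts with a median of 314, and the high strains had 240 to 448 with a median of 358. The sides overlapped widely over all 25 strains, with a log2 difference of -0.18 ± 0.10 (SE, unadjusted limma p = 0.0954). Among BXD34 to BXD89, the high strains had 349 in BXD34, 428 in BXD36, 424 in BXD48, 426 in BXD73 and 408 in BXD87. Of the low strains only BXD60, at 396, lay above the lowest of these. The difference there was -0.35 ± 0.09 (SE, unadjusted limma p = 0.00234), with -0.39 in RwwJ strains and -0.16 in TyJ strains. Gsdme overlaps the scaffold gene Mpp6 in the annotation, and the library kit does not mark the strand, so reads of the pair cannot be fully told apart.

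The gene directly before Gpnmb, Tmem176a, and its partner Tmem176b encode membrane proteins best known from dendritic cells and macrophages, and the annotated genes overlap. Tmem176a had 1693 to 2540 scaled counts in low strains and 1333 to 2643 in high strains, a log2 difference of 0.08 ± 0.09 (SE). Among BXD34 to BXD89 its high strains had 1754 in BXD34, 2150 in BXD36, 1333 in BXD48, 1568 in BXD73 and 1689 in BXD87. BXD48, BXD73 and BXD87 lay below the lowest low strain, and the difference was 0.33 ± 0.12 (SE, unadjusted limma p = 0.0156). Tmem176b differed by 0.02 ± 0.09 over all strains and by 0.26 ± 0.12 in BXD34 to BXD89. BXD48, the library with the highest sum of spinal cord genes, was the lowest high strain for Tmem176a, Tmem176b (2662) and Ccdc126. How far the differences in BXD34 to BXD89 rest on BXD48 was not tested. The median of Tmem176a was 2136 in low strains, 1689 in the high strains from BXD34 upwards and 2152 in the high strains BXD1 to BXD28, so the 2 sets of high strains lay on unequal levels. That difference was not tested.

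Tra2a, which encodes a regulator of splicing, differed in the other direction. Its median was 1323 in low strains and 1531 in the high strains from BXD34 upwards. The high strains BXD1 to BXD28 lay between, with a Tra2a median of 1420.5. It had 1232 to 1479 scaled counts in low strains, 1405 to 1647 in the high strains from BXD34 upwards and 1132 to 1502 in the high strains BXD1 to BXD28. Its log2 difference was -0.07 ± 0.06 over all strains and -0.18 ± 0.06 in BXD34 to BXD89 (SE, unadjusted limma p = 0.0141). Gimap9 differed by 0.33 ± 0.21 over all strains and by 0.70 ± 0.26 in BXD34 to BXD89 (unadjusted limma p = 0.0179), at 16 to 34 scaled counts in low strains and 9 to 34 in high strains. It belongs to a cluster of GTPase genes of lymphocytes beside Gpnmb, and the other members Gimap1, Gimap4, Gimap5, Gimap6 and Gimap8 had differences from -0.10 to 0.11 over all strains. In BXD34 to BXD89 these ran from -0.04 for Gimap6 to 0.42 for Gimap8, with 0.25 for Gimap1 and 0.24 for Gimap4.

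**Figure D3:**
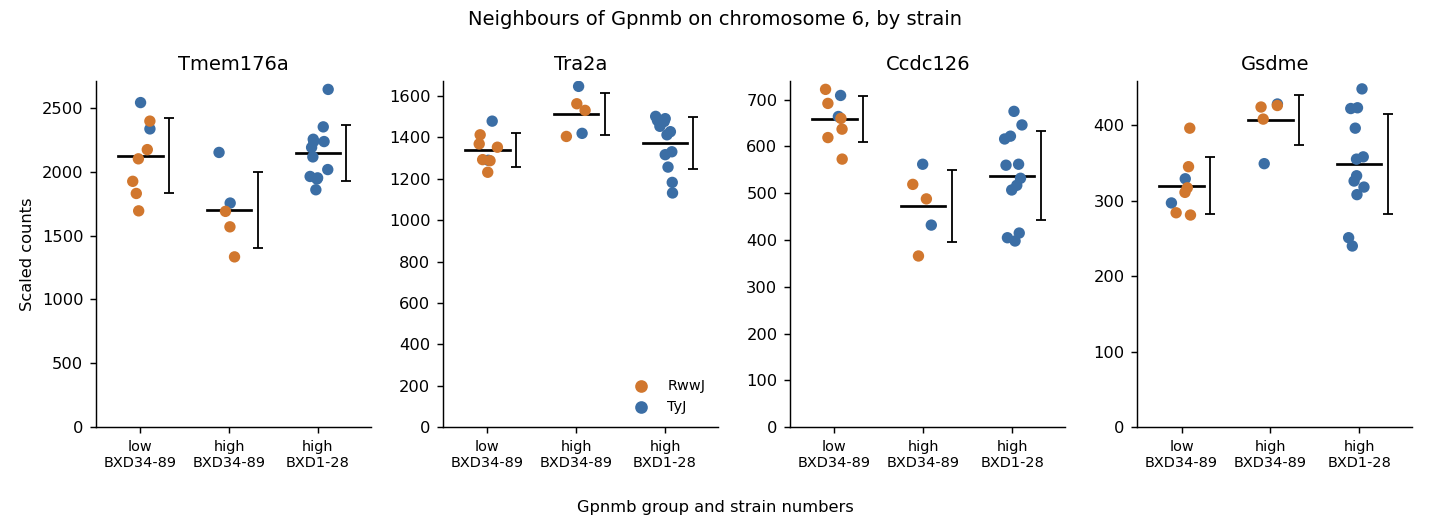
Scaled counts of 4 neighbours of Gpnmb in the 8 low strains, the 5 high strains from BXD34 upwards and the 12 high strains BXD1 to BXD28, with points coloured by name ending, bars at the mean and error bars of 1 SD. For Ccdc126 the low strains, at 573 to 722, lie above all 5 high strains of BXD34 to BXD89 and overlap the high strains BXD1 to BXD28.

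The rest of the 20 nearest genes had unadjusted limma p-values above 0.05 over all strains and in BXD34 to BXD89. Within TyJ strains, with 2 low strains, Igf2bp3 (-1.12 ± 0.40, SE) and Gimap4 (0.70 ± 0.33) fell under 0.05, as did Ccdc126. These were 3 of the 20 (15%), against 3.18% of all genes, and 0 were called. Within RwwJ strains 6 of the 20 (30%) fell under 0.05, against 3.63% of all genes, and 0 were called. These were Ccdc126, Gsdme, Tmem176a, Tmem176b, Tra2a and Gimap9. Igf2bp3 differed by 0.33 ± 0.46 in RwwJ strains and Gimap4 by 0.23 ± 0.28. Npy, the neuropeptide Y gene that sensory neurons switch on after nerve injury, had 2 to 40 scaled counts in low strains and 3 to 207 in high strains, with the highest values in BXD48 and BXD11 (log2 difference 0.06 ± 0.62, SE). Cycs, the cytochrome c gene, differed by 0.03 ± 0.12, the mitochondrial ribosome assembly gene Malsu1 by 0.07 ± 0.13 and the lipid-binding protein gene Osbpl3 by -0.09 ± 0.06. Igf2bp3, an RNA-binding protein gene of fetal tissues that overlaps Malsu1, was at 3 to 18 in low strains and 3 to 15 in high strains. Its difference was -0.28 ± 0.26. Fam221a, Mpp6, Zfp775 and AI854703 had differences of 0.26, 0.06, -0.07 and 0.14.

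Farther along chromosome 6, the genes at an unadjusted limma p under 0.05 over all strains were Dync1i1, a dynein chain gene (log2 difference 0.15), Irf5 (0.23), Cnot4 (0.11), Sspo (-0.87), C130060K24Rik (0.33) and the bicarbonate transporter gene Slc4a5 (0.60), each with a limma adjusted p of 0.9999. They were named after their values were seen. Irf5, an interferon regulatory factor gene, averaged 344 ± 44.97 in low strains and 296 ± 53.3 in high strains. Sspo, which encodes the large secreted protein SCO-spondin, had 3 to 28 scaled counts in low strains and 6 to 97 in high strains. Its difference was -1.43 ± 0.43 in BXD34 to BXD89 (SE, unadjusted limma p = 0.00525). It was -1.56 ± 0.29 in RwwJ strains and -1.51 ± 0.42 with strain ending as a covariate. Within TyJ strains the difference was -1.45 ± 0.71, and the 2 low strains there were unlike, with 3 in BXD40 and 23 in BXD42. Without BXD21, BXD36 and BXD40 the difference of Sspo was -0.68 ± 0.36. Ezh2, the histone methyltransferase gene of the Polycomb complex, lay 27 genes before Gpnmb with 138 to 182 in low strains. Its high strains from BXD34 upwards had 103 in BXD34, 165 in BXD36, 100 in BXD48, 85 in BXD73 and 99 in BXD87. The log2 difference of Ezh2 was 0.24 ± 0.16 over all strains, 0.56 ± 0.14 in BXD34 to BXD89 (SE, unadjusted limma p = 0.00147), 0.79 in RwwJ strains and -0.0026 in TyJ strains.

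The gene of smallest limma p over all strains lay on chromosome 4. The gene, Cyp2j13, encodes a cytochrome P450 enzyme and had 94 scaled counts in BXD40, 87 in BXD42, 297 in BXD44, 222 in BXD55, 332 in BXD60, 314 in BXD68, 295 in BXD77 and 426 in BXD89. The high strains ran from 49 through a median of 88 to 310, the last in BXD73. The log2 difference was 1.37 ± 0.28 (SE, limma adjusted p = 0.54). The values above 200 were all in RwwJ strains, 6 of them low and 1 high, and both low TyJ strains lay among the high TyJ strains. Within TyJ strains the difference was 0.14 ± 0.27, within RwwJ strains 1.39, and in BXD34 to BXD89 1.18 ± 0.45. Cyp2j13 was called with array weights (limma adjusted p = 0.023), without BXD42 (0.0484) and without BXD73 (0.017), 3 settings of the same fit.

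Lists of genes tied to Gpnmb by function, and lists marking the cell types and tissues a ganglion sample can hold, were then compared. Of 206 genes in these 17 lists, 189 were measured and tested, limma called 0 of them, and 1 (0.529%) had an unadjusted p under 0.05, a share below the 0.978% of all genes. The median difference over the list members was 0.06. Of the 10 measured pigment cell and melanosome genes, 4 were higher and 6 lower in low strains, with a median log2 difference of -0.04. Tyrp1, the melanosomal enzyme gene of the glaucoma model, had 107 to 834 scaled counts in low strains and 98 to 1333 in high strains (-0.41 ± 0.39, SE). Its difference was 0.04 in BXD34 to BXD89, 0.07 in RwwJ strains, -0.02 in TyJ strains and 0.03 with strain ending as a covariate. Mitf, the pigment cell transcription factor of the MiT-TFE family, averaged 118 ± 22.4 in low strains (SD, n = 8) and 118 ± 18.1 in high strains (SD, n = 17), a difference of -0.01 ± 0.10. Kit differed by 0.01 ± 0.11 and Myo5a, the myosin of melanosome transport that neurons also use, by -0.10 ± 0.14. Tyr, Dct and Mlana, which define melanocytes, were not among the genes tested.

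The lysosome and MiT-TFE target list had the narrowest range of differences. Of its 23 measured members, 15 were higher and 8 lower in low strains, the median difference was 0.02 and the differences ran from -0.05 to 0.10. The intervals of this list reached down to -0.64 and up to 0.84, both for Acp5. The transcription factor genes Tfe3 (-0.0015 ± 0.05, SE) and Tfeb (0.0013 ± 0.08), the lysosomal membrane gene Lamp1 (-0.02 ± 0.04) and the autophagy receptor gene Sqstm1 (0.04 ± 0.06) had differences within their standard errors. Grn, the progranulin gene, differed by 0.04 ± 0.09. The 11 genes whose proteins have been reported to bind or act with GPNMB, among them Cd44, Itgb1, Sdc4 and the sodium pump subunit gene Atp1b1 (-0.04 ± 0.07), had a median of -0.01. Of these, 5 were higher and 6 lower, and the widest interval ran to 0.55 on the log2 scale.

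Macrophage genes mostly had small positive differences, and none passed the test. Of 18 members, 15 were higher and 3 lower, the median log2 difference was 0.11, and 0 were called or had an unadjusted limma p under 0.05. The list median was 0.21 in BXD34 to BXD89, 0.25 with strain ending as a covariate and 0.05 without BXD21, BXD36 and BXD40. Their sum was 7421 to 18000 in low strains, lowest in BXD60 and highest in BXD40, and 6581 to 22289 in high strains, lowest in BXD16 and highest in BXD1. The macrophage receptor gene Csf1r differed by 0.12 ± 0.16 (SE), the complement gene C1qa by 0.09 ± 0.20 and the lysozyme gene Lyz2 by 0.06 ± 0.26. The 16 genes of lipid-laden phagocytes, the cell state in which Gpnmb is a standard marker, had a median of 0.04, with 13 higher and 3 lower. That median was 0.07 in BXD34 to BXD89 and 0.18 with strain ending as a covariate. Trem2 differed by 0.11 ± 0.21, Lgals3 by 0.14 ± 0.20, Spp1 by 0.01 ± 0.18 and Apoe by 0.04 ± 0.13. The intervals of this list reached down to -0.55, for Lpl, and up to 1.08, for Itgax.

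Genes of lymphocytes and MHC class II, the proteins that present antigen to helper T cells, had a median difference of 0.20, with 9 of 12 higher. The median was 0.25 in BXD34 to BXD89 and 0.51 with strain ending as a covariate. H2-Eb1 was the 1 list gene with an unadjusted limma p under 0.05. It had 1122 to 3739 scaled counts in low strains and 717 to 3426 in high strains, and averaged 2685 ± 1064 in low strains and 1767 ± 801 in high strains (log2 difference 0.62 ± 0.27, SE, p = 0.0309, limma adjusted p = 0.9999). The difference was 0.61 ± 0.32 in BXD34 to BXD89. The other class II genes H2-Aa (0.41 ± 0.25), H2-Ab1 (0.48 ± 0.24) and Cd74 (0.42 ± 0.23) were also higher in low strains, and the B cell gene Ms4a1 (-0.02 ± 0.41) was not.

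Lists of neurons and glia had medians near 0. The 18 sensory neuron genes had a median of 0.02, with Tubb3 at 0.08 ± 0.08 and the sodium channel gene Scn10a at 0.12 ± 0.13. The medians were -0.0021 for 12 nerve injury genes, -0.04 for 8 satellite glia genes, -0.06 for 12 Schwann cell genes and 0.01 for 8 genes of endothelium and mural cells. Atf3, a transcription factor gene induced by injury, differed by -0.12 ± 0.18. The lists of tissues around the ganglion had higher medians with wide errors. All 9 spinal cord genes, all 8 skeletal muscle genes and all 6 erythroid genes were higher in low strains, with medians of 0.45, 0.29 and 0.27 and median standard errors of 0.92, 0.78 and 0.36. The members of such a list share a source tissue and are not independent of each other. In BXD34 to BXD89 the medians were 0.32, 0.70 and 0.0048, and with strain ending as a covariate they were 0.31, 0.96 and 0.57.

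**Figure D4:**
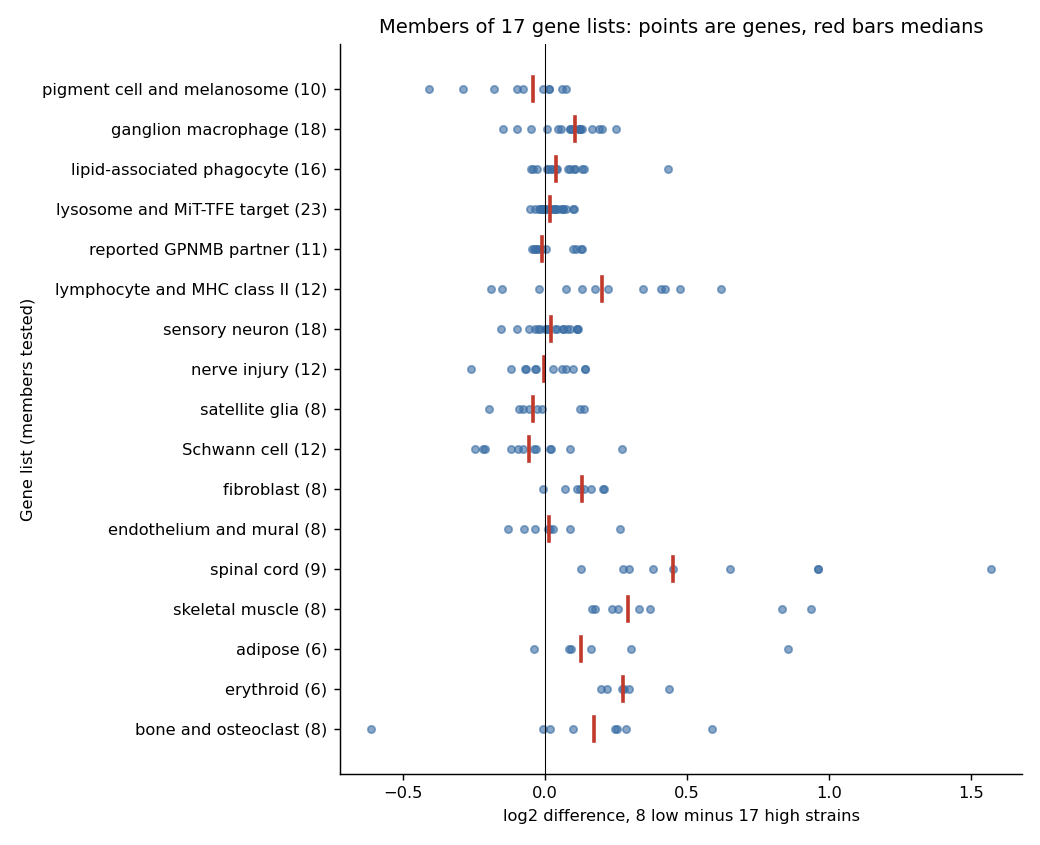
Log2 difference, low minus high strains, of each tested member (points) of 17 gene lists, with the list median as a red bar. The lysosome and MiT-TFE target genes lie within -0.05 to 0.10, and the spinal cord and muscle genes reach furthest to the right.

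How the Gpnmb split fell against 12 genes that lie at separate levels on other chromosomes was also described. Glo1, a glyoxalase gene known to be duplicated in DBA/2J, was at its upper level in 4 of 8 low strains and 11 of 17 high strains. Alad, a heme synthesis gene also duplicated there, was at its upper level in 5 low and 5 high strains. H2-Ea-ps was at its upper level in 3 low and 12 high strains, Tceanc2 in 3 low and 9 high, Scg5 in 3 low and 5 high, Myo7a in 4 low and 9 high, and Mcpt2 in 6 low and 11 high. Sc5d, an enzyme gene of sterol synthesis, stood at its upper level in 3 low and 8 high strains, Cyp51 of the same pathway in 4 low and 8 high, Tuba1c in 2 low and 5 high, and Gm12892 in 4 low and 8 high. Each of these 11 genes had strains of both sides at both of its levels. Nnt, the mitochondrial transhydrogenase gene that is damaged in C57BL/6J, was the exception, with 0 of 8 low and 6 of 17 high strains at its upper level. Those 6 strains were all numbered BXD1 to BXD28, and all 13 strains from BXD34 upwards were at the lower level. None of the 12 was called by limma between the sides (adjusted p = 0.9999 for each).

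A last comparison asked which genes went with the amount of Gpnmb among the 17 high strains, where the rule had fixed only that the value was 30 or more. With log2(Gpnmb + 1) as a continuous term, limma called 0 of 16151 genes (0%), and 2182 had an unadjusted p under 0.05 (13.5%), 1269 of them with a positive slope and 913 with a negative one. No other tool was run on all genes for this relation. The gene of smallest p was Zfas1, a noncoding host gene of small nucleolar RNAs, which had 390 scaled counts in BXD28, a median of 762 and 1890 in BXD5. Its slope was 0.92 ± 0.14 log2 units per log2 unit of Gpnmb (SE, limma adjusted p = 0.0598), and 0.92 within the 14 high TyJ strains. The next genes, at a limma adjusted p of 0.268, included Nop53, a ribosome assembly gene (0.34 ± 0.07), the ribosomal protein gene Rpl34 (0.85 ± 0.19), the fibroblast apolipoprotein gene Apod (0.78 ± 0.16), the sulfotransferase gene Sult1a1 (0.75 ± 0.16) and the neuronal pentraxin gene Nptx1 (-0.45 ± 0.10). They were named after their values were seen.

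Macrophage genes had positive slopes throughout. All 18 of 18 slopes were above 0, with a median of 0.45, and 10 of 18 had an unadjusted limma p under 0.05, against 13.5% of all genes, with 0 called. Slopes above 0 throughout were not particular to macrophages. They were also found for 8 skeletal muscle genes (median 1.0), 6 adipose genes (0.79), 6 erythroid genes (0.31) and 8 endothelium and mural genes (0.28). Of these lists 0, 1, 0 and 3 genes had an unadjusted limma p under 0.05. Of 9 spinal cord genes 6 had slopes above 0 (median 0.89). The scavenger receptor gene Cd163 had a slope of 0.66 ± 0.21 (SE), Lyz2 0.62 ± 0.23, the endotoxin coreceptor gene Cd14 0.60 ± 0.24, C1qa 0.51 ± 0.18 and Csf1r 0.33 ± 0.15, each with a limma adjusted p of 0.284 or more. Within the 14 high TyJ strains these slopes were 0.76, 0.54, 0.57, 0.47 and 0.33. When the mean of the macrophage list was added as a term, 593 of 16151 genes had an unadjusted p under 0.05 (3.67%), 1 of 18 macrophage genes did (Cd163), and Zfas1 kept a slope of 0.81. The macrophage genes are part of that term, so their own drop follows from its construction. Of 8 fibroblast genes 5 had slopes above 0, with a median of 0.17, and 2 had an unadjusted limma p under 0.05, Dcn (0.66 ± 0.18) and Apod. The collagen genes Col1a1 (-0.03 ± 0.26), Col1a2 (0.05 ± 0.20) and Col3a1 (-0.02 ± 0.28) had slopes within their standard errors, and the fibronectin gene Fn1 had -0.25 ± 0.40. Of 18 sensory neuron genes 4 had slopes above 0, with a median of -0.14. An unadjusted limma p under 0.05 was found for 3 of the 18, Scn10a (-0.28 ± 0.12), Ret (-0.28 ± 0.11) and P2rx3 (-0.21 ± 0.09), a share near the 13.5% of all genes. The neuropeptide genes Calca (0.23 ± 0.16) and Tac1 (0.21 ± 0.16) had positive slopes, and the heat and capsaicin receptor gene Trpv1 had -0.10 ± 0.15. No gene of either list was called. The part that the number of macrophages and other non-neuronal cells plays in these slopes was not tested.

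Over 6 single genes, Tyrp1 had the largest correlation with Gpnmb in the high strains. Pearson's r was 0.587 (permutation p = 0.0135, adjusted over the 6 genes p = 0.0809) and Spearman's rho 0.623 (permutation p = 0.00884, adjusted p = 0.053), with n = 17. Without BXD9 and BXD15, the strains farthest from the median of Gpnmb, r was 0.53, and within the 14 TyJ strains it was 0.555. Tyrp1 ran from 98 in BXD11 to 1333 in BXD15. Pearson's r was 0.472 for Csf1r and 0.46 for Cd68 (permutation, adjusted p = 0.125 for both), 0.365 for Trem2 and 0.22 for Lgals3. None of the 6 passed after adjustment. Without BXD9 and BXD15 r was 0.426 for Csf1r and 0.32 for Cd68. Tyrp1 did not stand for its list. In the limma fit on the level of Gpnmb, 4 of 10 pigment cell and melanosome genes had slopes above 0, with a median of -0.03. An unadjusted limma p under 0.05 was found for 2 of the 10, against 13.5% of all genes. These were Tyrp1 (1.03 ± 0.34, SE) and Myo5a (-0.37 ± 0.12), and 0 were called.

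**Figure D5:**
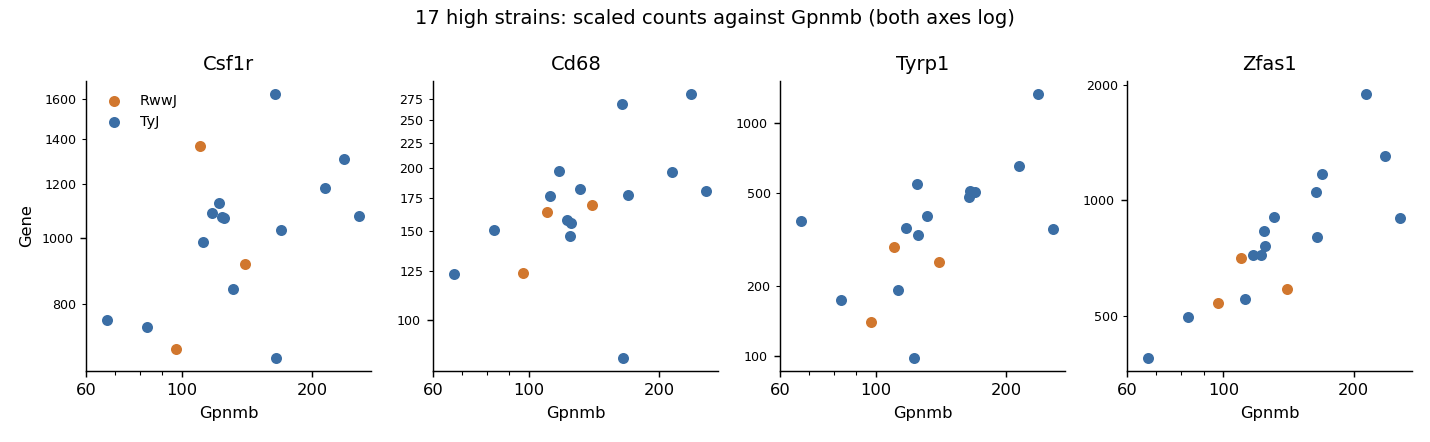
Scaled counts of Csf1r, Cd68, Tyrp1 and Zfas1 against Gpnmb in the 17 high strains, both axes logarithmic, with 1 point per strain coloured by name ending. Zfas1 runs from 390 in BXD28 to 1890 in BXD5, and BXD16 lies below the other strains for Csf1r and Cd68.

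The neighbours of Gpnmb were also set against its level in the high strains. Of the 20 nearest genes, 2 (10%) had an unadjusted limma p under 0.05, a share below the 13.5% of all genes. These were Gimap6, with a slope of 0.46 ± 0.12 (SE, limma adjusted p = 0.268), and AI854703, with -0.31 ± 0.12 (0.311). The slope of Ccdc126 was -0.23 ± 0.12 (limma p = 0.0606) over 17 strains and -0.29 within the 14 TyJ strains (limma p = 0.0147). The same high strains enter the comparison of the sides, so these values are not separate from it.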

How the data were processed

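RNA was sequenced from dorsal root ganglia of 25 BXD strains with an unstranded TruSeq RNA v2 kit. The tools named were TopHat2 2.0.9, HTSeq and CASAVA 1.8.0, and the builds mm9 and NCBIM37, per the submitters' processing notes. The deposited values have the unit score: judged from the values, the authors brought read counts to the same upper quartile in each library, then rounded. The tool that scaled them is not given in the sources used here, so no count model was fitted, and depth is described by totals of scaled counts.

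Of 16220 genes, 16151 were tested: 68 with a mean under 10 and Gpnmb were left out. Differences on log2(value + 1), which understate changes of low genes, were tested with limma 3.58.1 in R 4.3.3, trended prior, two-sided, Benjamini-Hochberg at 0.05, and checked on simulated data. Permutation tests used 100000 resamples in Python 3.11.15. Names, chromosomes and gene order came from GENCODE, a later build, for 15697 identifiers. The genes described were the 10 nearest on each side of Gpnmb, the 2 highest members of each list, the called genes and 12 genes at separate levels. Genes outside this rule, including most list members printed, were chosen after their values were seen. The strains, gene lists and tests were all chosen with earlier results of these data known. Alternatives were other pseudocounts, filters, scalings, covariates, strain subsets and leaving out each strain. The values of some genes tested are not reported here.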

Additional observations from a re-analysis of the deposited data

Results flagged for a closer look

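Among the 8 low strains, 68 genes were checked for a strain standing apart from the rest, and 3 did, where chance would give about 1 in 20. Gimap6 had 431 scaled counts in BXD40, against 193 to 276 in the other low strains. Cycs had 6658 in BXD40, against 3644 to 4437. Mpp6 had 767 in BXD55, against 379 to 470. BXD40 accounts for 2 of the 3. In Cycs, the high strains BXD36 (6626) and BXD21 (6182) reached a level like that of BXD40. Whether the difference between low and high strains was itself unequal in TyJ and RwwJ strains was tested as an interaction, for which limma called 0 of 16151 genes. The unadjusted p was under 0.05 for 464 genes, and the lowest adjusted p was 0.986.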

How the results depend on the processing

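Low against high strains gave 0 called genes in limma under each alternative except array weights (1 gene over all genes and 1 on other chromosomes), and 0 to 1 when each strain was left out in turn. The gene was Cyp2j13 each time, without BXD42 or BXD73. The count on chromosome 6 was 0 throughout. At an unadjusted p under 0.05 the count was 158, and 124 to 369 with each strain left out, with 369 without BXD40 and 238 without BXD68. It was 526 with array weights, 530 with strain ending as a covariate, 514 in TyJ strains, 587 in RwwJ strains and 238 in BXD34 to BXD89. A covariate that separated BXD1 to BXD28 from BXD34 to BXD89 gave 217. The count was 286 without BXD21, BXD36 and BXD40, and 302 with either muscle, erythroid and Schwann cell scores or the macrophage score. The cause was not tested. Within the high strains the count called was 0 to 6 on leaving out each strain: 1 without BXD9 or BXD87 (Zfas1) and 6 without BXD16 (among them Apod, Pabpc1, Rpl34, Tax1bp3 and Zfas1). Its count at an unadjusted p under 0.05 was 2182, from 1439 without BXD13 to 2909 without BXD16, and was 1339 in TyJ strains and 1491 with strain ending as a covariate. Signs of 49 of 67 named genes changed in at least 1 alternative, in no case where the main interval left out 0. Depth was not recovered, so counting error for genes near the floor, Gpnmb in low strains among them, is unknown. No paired analysis was possible because replicate numbers were given in accession order and pair no strains.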
